A study of Mus musculus with 12 samples.

Results

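Axon guidance genes encode the cues that steer growing nerve fibres and migrating cells, and the receptors that read them. In mouse otic vesicles and in a cell line derived from them, 151 probe sets, each annotated to 1 gene, had a symbol of one of these families and were taken as members, whatever their values. They stood for 68 genes, of 45101 probe sets and 18194 genes with a probe set of their own on the array. The ligands were 7 class 3 semaphorins, 13 other semaphorins, 5 ephrin-A genes, 3 ephrin-B genes, 3 Slit genes and 4 netrins. The receptors were 9 plexins, 2 neuropilins, 9 EphA and 4 EphB receptors, 4 Robo receptors and 5 netrin receptors (Dcc and 4 Unc5 genes). Of the 68 genes, 45 had several probe sets, up to 6 for 1 gene, and each gene was tested through the probe set with the highest mean level.

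RNA of 12 samples was hybridised to Affymetrix arrays, 2 arrays for each of 6 groups. Otic vesicles, the closed epithelial cups from which the inner ear forms, came from wild-type embryos and from embryos labelled Dlx5-null, at the embryonic stages E10 and E10.5. Dlx5 is a homeodomain transcription factor of the dorsal otic vesicle, and the study asked which genes lie downstream of it. Each vesicle sample was a pool of 4 to 8 vesicles treated with dispase to free them of mesenchyme, and the labels call the 2 pools of a group biological replicates. The 2B1 line, described in the labels as an otic vesicle line, was transiently transfected either with Dlx5 or with an empty vector that carried only GFP. The line was grown at 32 °C, and the transfected cells then differentiated for 4 days at 37 °C. The 2 samples of each group were independent cultures.

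Semaphorins signal through plexins, and the secreted class 3 members do so with neuropilins as co-receptors. Ephrins are bound to the cell surface and activate Eph receptor tyrosine kinases on neighbouring cells, Slit proteins repel through Robo receptors, and netrins attract through Dcc and repel through Unc5 receptors. In the ear, members of these systems are known for guiding axons of the statoacoustic ganglion and, in the case of Ntn1, for the formation of the semicircular canals, and several also shape blood vessels.

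All values are deposited log2 expression values, so a difference of 1 is a doubling, and levels of different probe sets are not comparable. The vesicle and cell line arrays had different means and maxima, so their levels are given apart and are not comparable. The single Dlx5 probe set read 6.11 to 6.30 on the 4 wild-type vesicle arrays and 7.27 to 8.02 on the 4 labelled-null arrays, which goes against the label. Whether it lies in the deleted part of the gene was not determined here, so it checks nothing, and the direction of every genotype difference rests on the labels. In 2B1 cells it read 5.14 and 4.80 with Dlx5 and 4.66 and 4.79 with the empty vector. It did not pass the filter on low values there and was not tested. A higher Dlx5 level in the transfected cells was thus not shown. Markers of the otic epithelium had a mean level of 8.16 to 8.99 on the vesicle arrays, and all 13 measured passed the filter on low values. In 2B1 cells, on the scale of those arrays, their mean was 5.31 to 5.56. There 8 passed the filter, and Gbx2, Lmx1a, Otx1, Pax8 and Tbx2 were below it. The replicate 1 arrays of both E10 groups stood apart. Xist, a transcript of the inactive X chromosome, read 5.07 and 4.98 on them, against 8.91 to 9.72 on the other 6 vesicle arrays. Their spread of values was narrower (SD 2.32 and 2.33, against 2.38 to 2.47). Their mean level of otic epithelium markers was lower, at 8.16 and 8.24 against 8.74 to 8.99.

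Stage was the single comparison in which guidance genes passed the threshold. From E10 to E10.5, over both genotypes, 13 of the 58 members tested rose and 6 fell at a limma adjusted p under 0.05. That was 32.8% of them, against a background of 15.8% of all 13645 genes tested. The rises were Efna1, Nrp2, Plxnd1, Sema6c, Ephb6, Sema3b, Ephb1, Efna2, Unc5b, Plxnb2, Epha10, Efna4 and Sema4g, and the background for rises was 9.28%. The falls were Epha7, Sema3c, Epha4, Dcc, Sema3a and Unc5c, with a background of 6.54%. Called or not, 41 members were higher at E10.5, 16 lower and 1 equal, and the median difference was 0.25 against 0.05 for all genes. The arrays of the stages did not overlap within either genotype for 28 members (48.3%), against 31.5% of all genes. They did not overlap for any called member but Sema4g, whose labelled-null arrays overlapped by 0.01.

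**Figure D1:**
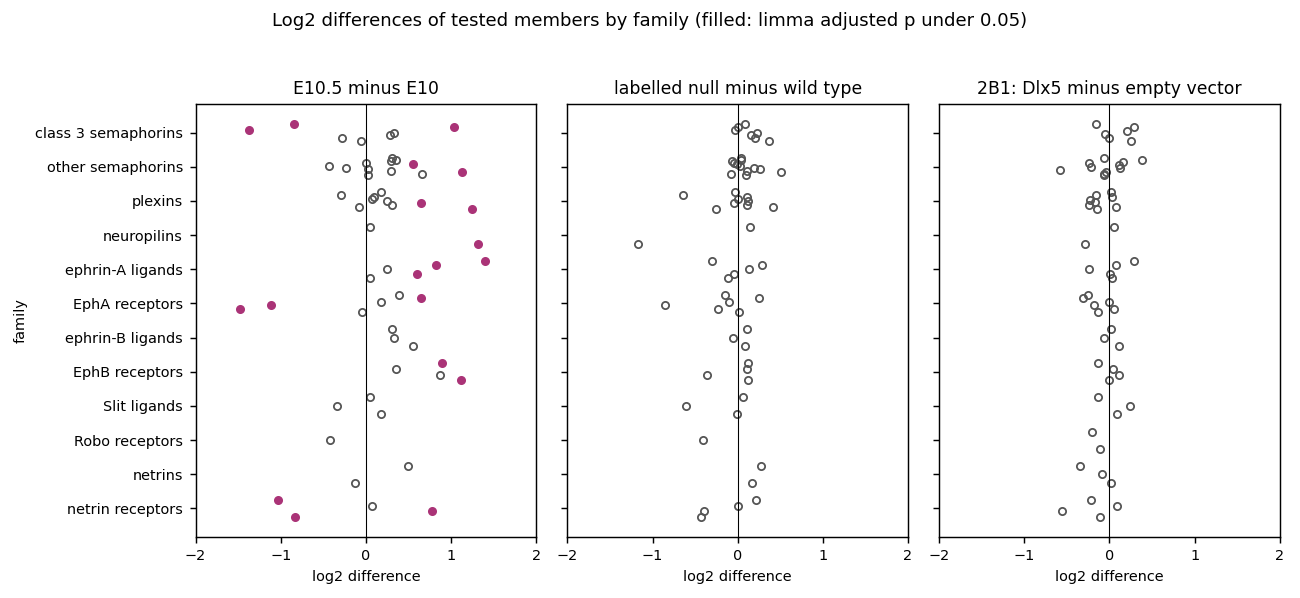
Log2 difference of each tested member gene (points, 1 per gene) by family, for E10.5 minus E10 and labelled null minus wild type over 8 vesicle arrays, and for Dlx5 minus empty vector over 4 arrays of 2B1 cells. Filled points passed a limma adjusted p of 0.05: 19 for stage, none for genotype or in 2B1 cells, and the point farthest to the left for genotype is Nrp2 at -1.18.

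Among class 3 semaphorins, 1 of 7 rose and 2 fell. Sema3a, the founding repellent of the class, read 7.76, 8.00, 7.63 and 8.04 at E10, wild type first, and 6.86, 6.93, 7.03 and 7.21 at E10.5. Every E10.5 array lay below every E10 array, and the level fell by 0.85 ± 0.13 (SE, adjusted p = 0.00734). Sema3c, also a secreted ligand, read 8.28, 8.22, 8.67 and 8.48 at E10 and 6.99, 7.48, 7.40 and 6.28 at E10.5. It fell by 1.38 ± 0.26 (adjusted p = 0.0137), with a gap between the stages in both genotypes and a wide spread within the labelled-null E10.5 pair. Sema3b went the other way, rising by 1.03 ± 0.24 (adjusted p = 0.0266), and its other 2 probe sets differed by 0.82 and 1.03. The other probe sets of Sema3a (-0.20 and -0.36) and Sema3c (-1.07) had the same sign as those tested. The remaining 4 members, Sema3d, Sema3e, Sema3f and Sema3g, differed by -0.29 to 0.33 and did not pass.

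Of 12 other semaphorins tested, which are anchored in the membrane, 2 rose and none fell. Sema6c read 9.13, 9.50, 9.61 and 10.21 at E10 and 10.91, 10.15, 11.09 and 10.81 at E10.5, a rise of 1.13 ± 0.21 (adjusted p = 0.0121). Its stages separated within each genotype, although the lower wild-type E10.5 array read less than the higher labelled-null E10 array. The other 2 Sema6c probe sets differed by -0.03 and 0.20, so the rise was seen with 1 of its 3. Sema4g rose by 0.55 ± 0.15 (adjusted p = 0.0394).

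Of their receptors, 2 of 9 plexins and 1 of 2 neuropilins rose and none fell. Plxnd1, a plexin known for vessel patterning and as the receptor of Sema3e, read 7.52, 7.78, 7.22 and 7.70 at E10 and 8.98, 8.94, 8.57 and 8.70 at E10.5. The rise of 1.24 ± 0.13 (adjusted p = 0.00332) had the smallest adjusted p of any member. Plxnb2, a receptor of class 4 semaphorins, rose by 0.65 ± 0.15 (adjusted p = 0.0242). The other 7 plexins did not pass, and the median of all 9 was 0.18, or 0.04 after quantile normalization of the arrays. Nrp2, a co-receptor of class 3 semaphorins and of a VEGF, read 7.52, 8.48, 6.69 and 7.73 at E10 and 9.71, 9.69, 8.19 and 8.09 at E10.5. It rose by 1.32 ± 0.29 (adjusted p = 0.0223), with labelled-null arrays at E10.5 no higher than the upper wild-type array at E10. A second bright Nrp2 probe set differed by 1.80, and the dim remaining sets by 0.11 and 0.26. Nrp1, the other neuropilin, differed by 0.05.

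Of 5 ephrin-A ligands, 3 rose and none fell. Efna1, a lipid-anchored ligand of EphA receptors, read 6.21, 6.80, 5.98 and 6.69 at E10 and 8.08, 7.99, 7.76 and 7.44 at E10.5. All 4 later arrays exceeded all 4 earlier ones, the rise was 1.40 ± 0.20 (adjusted p = 0.00551), and its second probe set differed by 1.37. Efna2 rose by 0.82 ± 0.21 (adjusted p = 0.0334) and Efna4 by 0.60 ± 0.17 (adjusted p = 0.0447), with Efna3 and Efna5 at 0.24 and 0.04. The 3 ephrin-B ligands differed by 0.31 to 0.55 and did not pass.

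Among EphA receptors, which bind those ligands, 2 of 6 tested fell and 1 rose. Epha7 read 8.48, 7.84, 8.49 and 7.68 at E10 and 6.81, 6.86, 6.80 and 6.09 at E10.5. It fell by 1.48 ± 0.24 (adjusted p = 0.00781), with no overlap between the stages, and replicate 1 was the higher array of each E10 pair. Epha4, which binds ephrins of both classes, read 7.41, 7.54, 6.79 and 6.54 at E10, wild type first, and 6.38, 6.42, 5.79 and 5.21 at E10.5. It fell by 1.12 ± 0.14 (adjusted p = 0.00474), and the stages did not overlap. Probe sets of both genes disagreed: 1 of the other 3 of Epha7 differed by 0.23 and 1 of the other 4 of Epha4 by 0.15, against lower values at E10.5 on the rest. Epha10, a receptor without an active kinase, rose by 0.64 ± 0.18 (adjusted p = 0.0435). Of the EphB receptors, Ephb6, also kinase-defective, rose by 1.11 ± 0.23 (adjusted p = 0.0173) and Ephb1 by 0.89 ± 0.19 (adjusted p = 0.0205). Ephb3 (0.36) and Ephb4 (0.87) had the same sign and did not pass.

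The start-site sequences of the ephrin-A ligand and the 2 EphA receptors with the largest changes are shown because Dlx proteins are homeodomain factors and core homeodomain motifs can be looked for in them. Each is the 250 bases before a RefSeq transcript start on GRCm38.p6, read 5′ to 3′ on the strand of the gene, with TAATTA or TAATTG in capitals where present on either strand. That of Efna1 is chr3:89280952-89281201 (minus strand), that of Epha7 is chr4:28812895-28813144 (plus strand) and that of Epha4 is chr1:77515089-77515338 (minus strand).
Efna1: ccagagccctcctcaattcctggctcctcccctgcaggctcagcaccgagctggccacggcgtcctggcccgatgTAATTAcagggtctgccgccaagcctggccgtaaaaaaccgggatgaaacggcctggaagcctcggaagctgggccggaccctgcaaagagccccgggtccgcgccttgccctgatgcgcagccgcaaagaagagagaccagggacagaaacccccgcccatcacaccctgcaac
Epha7: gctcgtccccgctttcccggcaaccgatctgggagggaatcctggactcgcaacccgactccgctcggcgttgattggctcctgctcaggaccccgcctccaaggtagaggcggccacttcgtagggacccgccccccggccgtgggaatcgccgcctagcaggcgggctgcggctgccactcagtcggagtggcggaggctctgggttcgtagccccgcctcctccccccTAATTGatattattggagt
Epha4: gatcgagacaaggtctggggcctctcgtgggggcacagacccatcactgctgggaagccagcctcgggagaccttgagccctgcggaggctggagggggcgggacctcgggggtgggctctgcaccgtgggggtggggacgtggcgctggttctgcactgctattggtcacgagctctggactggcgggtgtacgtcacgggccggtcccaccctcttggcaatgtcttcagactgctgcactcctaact
The Efna1 window holds a TAATTA whose first base is 175 bases before the start, the Epha7 window a TAATTG at 19 bases, and the Epha4 window neither. A second listed start of Efna1 and one of Epha7 had no match in their windows. Of 74 start-site windows of 58 members, 6 (8.11%) held either motif, against 11.3% of 32851 windows of all genes. TAATTA was in 3 member windows (4.05%, against 4.84%) and TAATTG in 3 (4.05%, against 7.17%). The share of member windows with a motif was thus not above that of all windows, and these counts carry no test.

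Slit and Robo genes did not pass for stage. Slit2 differed by -0.34, Slit1 by 0.04 and Slit3 by 0.18, and Robo1, the single Robo receptor above the filter, by -0.42. After quantile normalization the median of the Slit genes turned from 0.04 to -0.10, and Slit2 and Robo1 passed.

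Netrin receptors changed in both directions. Dcc, the attractive netrin receptor, read 8.66, 8.61, 8.61 and 8.88 at E10 and 7.42, 7.59, 8.13 and 7.50 at E10.5. It fell by 1.03 ± 0.15 (adjusted p = 0.0066), with the stages apart in both genotypes. One of its other probe sets differed by -0.71 and the other by 0.23. Unc5c, a repulsive receptor, read 10.72, 10.75, 10.65 and 10.38 at E10 and 10.10, 10.13, 9.45 and 9.49 at E10.5, and fell by 0.83 ± 0.12 (adjusted p = 0.00658). Unc5b, of the same family and also known from vessels, read 11.23, 11.28, 10.69 and 11.22 at E10 and 12.12, 12.12, 11.65 and 11.61 at E10.5. It rose by 0.77 ± 0.13 (adjusted p = 0.00986), so the Unc5 receptors that passed did so in opposite directions, each with a second probe set of the same sign (-0.29 and 0.55). Unc5a differed by 0.08, and the netrins tested, Ntn4 and Ntn5, by 0.50 and -0.13 without passing.

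**Figure D2:**
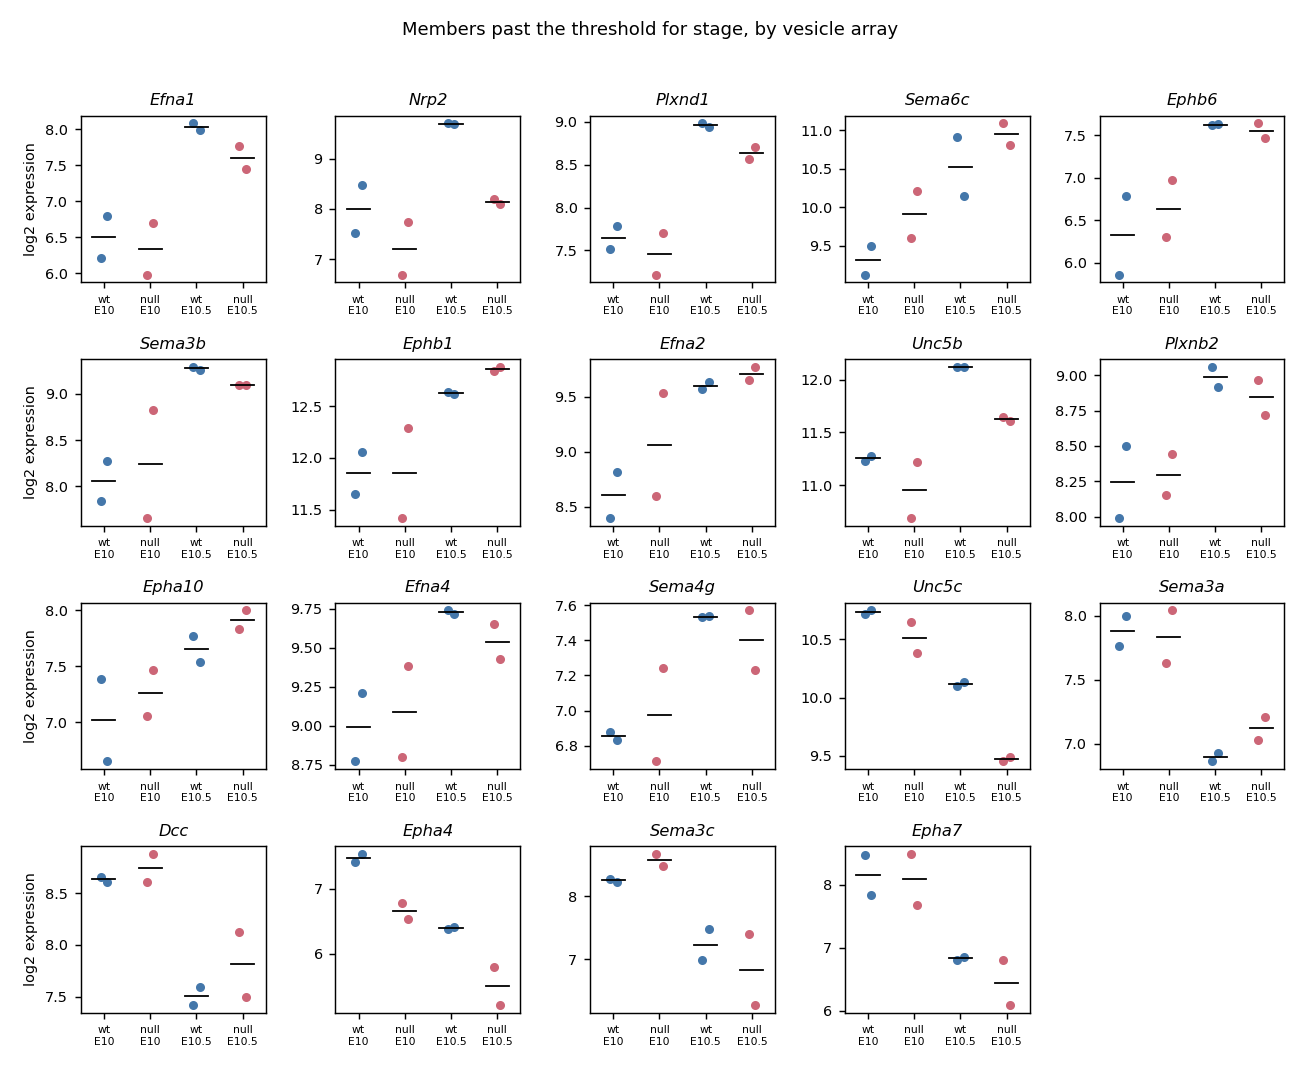
Log2 expression of the 19 members that passed for stage, on each of the 8 vesicle arrays (points) with group means (bars), 2 arrays a group; axes differ between genes and do not start at 0. Efna1 lies at 5.98 to 6.80 at E10 and at 7.44 to 8.08 at E10.5, and Epha4 falls with stage in wild type and labelled-null vesicles alike while lying lower in the latter.

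The direction for all 19 was the same in each genotype, which their choice from a fit over both genotypes favours. Efna1 differed by 1.53 in wild type and 1.27 in labelled-null vesicles, Epha7 by -1.33 and -1.64, and Nrp2 by 1.70 and 0.93. Over all 58 members 45 had the same sign in both (77.6%), as had 77.6% of all genes. With either genotype's 4 arrays alone, no member was called by limma. Of all genes, 0 were called in wild type and 5 in the labelled-null arrays, with 2985 and 1665 at an unadjusted p under 0.05.

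Of 58 other guidance genes tested, signalling partners and further cues, 7 rose and 3 fell, with a median of 0.17. That was 17.2% of them, near the 15.8% of all genes. The rises included Gap43, a growth cone protein (1.23), Crmp1, a mediator of semaphorin signals (1.19), L1cam, an axonal adhesion molecule (0.93), and Draxin, a repulsive cue (0.88), besides Dpysl4 (0.99), Cntn2 (0.84) and Lingo1 (0.42). Among the falls were the adaptor Nck1 (-0.51) and Rgmb (-0.56), a ligand of neogenin.

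Markers of several other cell types moved with stage as well. Of 18 neuronal markers tested, 10 rose and 1 fell, and their mean level was 6.42 to 6.93 on the E10 arrays and 7.52 to 7.88 on the E10.5 arrays. Of 11 endothelial markers 5 rose (mean level 5.74 to 5.96, then 6.17 to 6.41), of 13 markers of periotic mesenchyme 6 rose (5.89 to 6.36, then 6.46 to 6.76), and of 9 blood markers 6 rose (7.26 to 7.88, then 8.63 to 9.71). Of 13 otic epithelium markers tested 3 rose and 2 fell, and none of 4 neural crest and glia markers or 2 hindbrain markers passed. The part of these cells in the guidance gene differences was not tested. In pooled tissue a change in the number of cells of a type and a change of RNA per cell cannot be told apart.

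Without 1 array at a time 8 to 23 members passed: 8 and 10 without wild-type E10.5 replicate 1 or 2, 10 without labelled-null E10.5 replicate 1 and 11 without labelled-null E10 replicate 1. Dcc, Efna1, Epha4, Epha7, Plxnd1, Sema3a, Sema6c and Unc5c passed in each of these 8 fits. The other called members kept their direction in these fits but did not pass in each. With all arrays, Efna4 did not pass without the filter on low values or after centring on the median. Epha10 did not pass without that filter or after quantile normalization. With the level of the Y-linked gene Eif2s3y as a covariate (3.96 to 7.04 at E10, 3.21 to 5.04 at E10.5), 3 passed: Plxnd1 (1.06), Epha4 (-1.21) and Sema5a. Without both E10 replicate 1 arrays 19 passed, of which 16 were the same.

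Between genotypes, over both stages, limma called none of the 58 members, against a background of 0.022% of all genes (3 of 13645). Before adjustment, 9 members had a p under 0.05 (15.5%, against 4.1% of all genes), 2 of them higher in labelled-null vesicles (background 1.27%) and 7 lower (background 2.84%). The arrays of the genotypes did not overlap at either stage for 6 members (10.3%, against 5.21%). All 6 were lower in the labelled-null arrays, which held for 3.24% of all genes: the receptors Epha4, Plxna2, Unc5c, Unc5b and Robo1, and the ligand Slit2. Called or not, 33 members were higher and 24 lower, with a median of 0.03 against -0.01 for all genes.

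Slit2, a secreted repellent, read 9.03 and 8.97 on the wild-type E10 arrays and 8.42 and 8.32 on the labelled-null ones, and at E10.5 the same order gave 8.54, 8.73, 8.19 and 7.93. The difference was -0.60 ± 0.11 (adjusted p = 0.174). Its other probe sets, both dimmer, differed by 0.28 and -0.17. Robo1, which binds it, read 7.30, 7.73, 6.95 and 7.05 at E10, wild type first, and 7.01, 6.97, 6.88 and 6.49 at E10.5. Its difference was -0.41 ± 0.14 (adjusted p = 0.996), and its other probe sets differed by 0.15 and -0.10. Each pair of groups was separate for both genes, by as little as 0.09 for Robo1 at E10.5.

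Epha4, whose values are given above, differed by -0.86 ± 0.14 (adjusted p = 0.162), the smallest adjusted p of any member. Its other 4 probe sets differed by -0.39, -0.34, -0.06 and 0.30. Plxna2, a plexin-A receptor of class 6 semaphorins, read 6.79, 6.99, 6.25 and 6.45 at E10, and 6.65, 6.74, 6.14 and 5.75 at E10.5. Its difference was -0.65 ± 0.13 (adjusted p = 0.264), with other probe sets at -0.39, -0.11 and 0.15. Unc5c differed by -0.43 ± 0.12 (adjusted p = 0.820) and Unc5b by -0.40 ± 0.13 (adjusted p = 0.949). Their second probe sets differed by -0.22 and -0.02.

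Nrp2 had the largest genotype difference of any member, -1.18 ± 0.29 (adjusted p = 0.526). Its wild-type and labelled-null arrays overlapped at E10, where replicate 2 of each group was the higher array. Its second bright probe set read 7.08 and 7.63 in the E10 wild-type pair and 5.03 and 6.44 in the labelled-null pair. At E10.5 the same set read 9.03 on both wild-type arrays, and 7.88 and 7.45 on the labelled-null ones. It did not overlap at either stage and differed by -1.49, and the remaining sets differed by -0.30 and -0.47, so all 4 were lower in the labelled-null arrays.

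**Figure D3:**
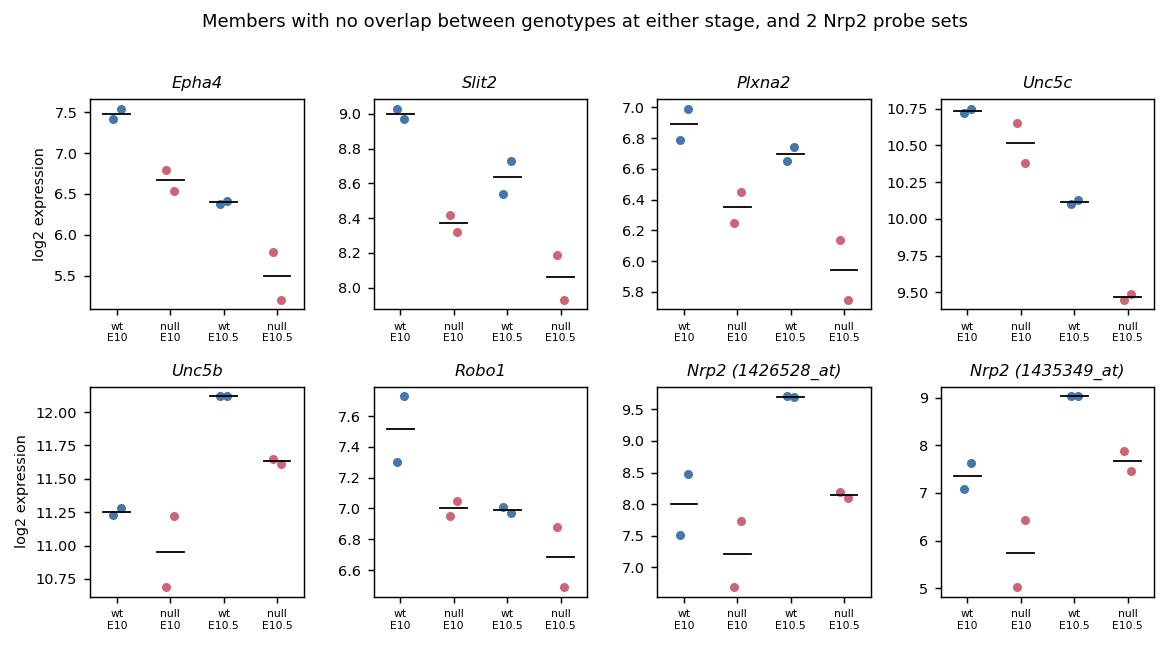
Log2 expression on each of the 8 vesicle arrays (points) with group means (bars) of the 6 members whose genotypes did not overlap at either stage, and of 2 Nrp2 probe sets, 2 arrays a group; axes differ and do not start at 0. Each of the 6 is lower in the labelled-null arrays of both stages, and none passed over all genes.

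Other members differed between genotypes in both directions, and Sema6c and Sema3g were the 2 higher ones with an unadjusted limma p under 0.05. Class 3 semaphorins had a median of 0.16, led by Sema3g (0.36) and Sema3d (0.23), and the other semaphorins one of 0.04, led by Sema6c (0.51) and Sema6a (0.27). The ephrin-A ligands Efna1 and Efna2 differed by -0.30 and 0.28, the ephrin-B ligands Efnb1 and Efnb3 by 0.11 and 0.09, and the receptors Ephb4 and Ephb6 by -0.36 and 0.12. Epha10 differed by 0.25, Plxnc1 by 0.41, Nrp1 by 0.14, Slit1 by 0.07, Ntn4 by 0.27 and Ntn5 by 0.17. Other probe sets of Sema6a (-0.19 and -0.09) and of Plxnc1 (-0.19 to 0.28) differed in sign. None of these differences passed, and the median of the Slit genes turned from -0.01 to 0.03 after quantile normalization.

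At E10 alone none of the members passed in limma, and neither did any gene (0%, with 451 genes at an unadjusted p under 0.05). At that unadjusted level 6 members differed (10.3%, against 3.31%). The arrays did not overlap for 18 members (31%, against 17.4%), 11 higher (background 8.52%) and 7 lower (background 8.93%) in labelled-null vesicles. The differences of at least 0.5 without overlap were those of the ligands Sema3g (7.46 and 7.51 in wild type, 8.18 and 8.15 labelled null, a difference of 0.68 ± 0.17) and Sema3d (5.22 and 5.60, 5.95 and 6.08, 0.61 ± 0.23). Sema6c (0.60 ± 0.31) and the receptor Plxnc1 (0.79 ± 0.38) were also higher, the latter with labelled-null arrays at 5.19 and 6.44 and with its other 5 probe sets between -0.26 and 0.35. On the lower side were Epha4 (-0.81 ± 0.22), Slit2 (-0.63 ± 0.16), Plxna2 (-0.54 ± 0.19) and Robo1 (-0.52 ± 0.21). Over the alternative settings Epha4 ranged from -1 to -0.42, Slit2 from -0.68 to -0.01, Plxna2 from -0.64 to -0.31 and Robo1 from -0.73 to -0.25. Of 40 tested members with several probe sets, 17 had the same sign on all of them at E10.

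At E10.5 alone none passed either, against 0.00733% of all genes (1 of 13645, with 403 at an unadjusted p under 0.05). The 7 members at an unadjusted p under 0.05 (12.1%, against 2.95%) were all lower in the labelled-null arrays (background 2.18%). The arrays did not overlap for 32 members (55.2%, against 45.1%). Nrp2, whose wild-type arrays read 9.71 and 9.69 and labelled-null arrays 8.19 and 8.09, differed by -1.56 ± 0.40 (adjusted p = 0.879). Epha4 differed by -0.90 ± 0.22, Plxna2 by -0.75 ± 0.19, Unc5c by -0.65 ± 0.15 and Slit2 by -0.58 ± 0.16, each with an adjusted p of 0.820 or more. Efnb2 (-0.38) and Unc5b (-0.49) were the other 2. Over the alternative settings Epha4 ranged from -1.19 to -0.12, Plxna2 from -0.945 to -0.18, Unc5c from -0.665 to -0.40 and Slit2 from -0.705 to -0.315.

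The fits of each stage share one estimate of spread, and the E10 pairs spread more widely: the median SD of a member was 0.24 and 0.23 in the E10 groups, and 0.05 and 0.12 in wild-type and labelled-null vesicles at E10.5. Without both E10 replicate 1 arrays 2 members passed at E10.5: Nrp2 at the same difference (adjusted p = 0.0136, in a range of 0.0136 to 1 over 19 alternatives) and Ephb4, a receptor of Efnb2, at -0.90. Of all genes, 37 passed at E10.5 in that fit, against 1 with all arrays. Over both stages, without those arrays, Ephb4 was the single member that passed (-0.85, adjusted p = 0.0255, in a range of 0.0255 to 1), and 20 of all genes passed, against 3 with all arrays. With the Eif2s3y level as a covariate Ephb4 turned to 0.18 over both stages, and Nrp2 at E10.5 differed by -1.01.

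The change of the genotype difference from E10 to E10.5 was tested as an interaction. No member passed in limma and no gene did (0%, with 269 genes at an unadjusted p under 0.05), and 2 members had an unadjusted p under 0.05 (3.45%, against 1.97%). Called or not, the interaction was below 0 for 43 of 58 members, with a median of -0.22 against -0.04 for all genes. After quantile normalization it was below 0 for 38, with a median of -0.14. Efnb2, an arterial ephrin-B ligand, read 9.09, 9.27, 9.49 and 9.43 at E10, wild type first, and 9.84, 9.83, 9.49 and 9.42 at E10.5. The labelled-null arrays were thus the higher at E10 and the lower at E10.5, an interaction of -0.66 ± 0.20 (adjusted p = 1), and a second bright probe set gave -0.66 while the dim sets gave -0.19 and 0.07. Sema3g (-0.64), Sema3d (-0.75) and Ephb4 (-1.08) had interactions of the same sign without passing. The sign of the genotype difference was the same at both stages for 24 members (41.4%), against 51.9% of all genes.

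**Figure D4:**
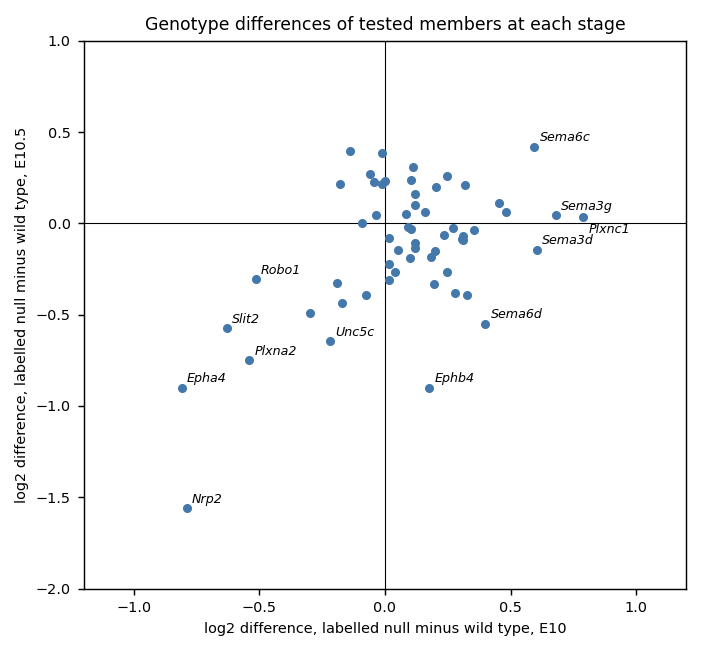
Log2 difference, labelled null minus wild type, at E10 (horizontal axis) and E10.5 (vertical axis) for each of the 58 tested members, 2 arrays a group; genes with a difference of at least 0.5 at either stage are named. Nrp2, Epha4, Plxna2, Slit2 and Robo1 lie below 0 at both stages, and Sema3d, Sema6d and Ephb4 are above 0 at E10 and below it at E10.5.

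Markers of other cells differed between genotypes without passing. Over both stages 17 of 18 neuronal markers (median 0.24) and 9 of 9 blood markers (0.45) were higher in labelled-null vesicles, while 9 of 11 endothelial (-0.10) and 10 of 13 mesenchymal markers (-0.20) were lower. For blood this lay at E10.5, where all 9 were higher with a median of 0.96, while at E10 6 were higher and 3 lower with a median of 0.055. The mean blood marker level was 7.29 to 7.88 in wild type and 7.26 to 7.88 in labelled-null vesicles at E10. At E10.5 it was 8.63 to 8.64 in wild type and 9.66 to 9.71 in labelled-null vesicles, and the mean endothelial level was 6.39 to 6.41 against 6.17 to 6.30. Over both stages 7 of 13 otic epithelium markers were higher and 6 lower (median 0.08). Of neural crest and glia markers 2 were higher and 2 lower, and the 2 hindbrain markers tested were higher (median 0.01). The part of these cells in the differences of Nrp2, Unc5b, Efnb2, Ephb4 and the other members was not tested. Of the 58 further guidance genes none passed, with 32 higher, 25 lower and a median of 0.03. Those with the smallest unadjusted p were Flrt1 (0.32), Vav3 (0.61) and Nck2 (0.33) on the higher side and Gap43 (-0.57), Flrt3 (-0.42) and Rac1 (-0.36) on the lower.

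In 2B1 cells limma called no member of 57 between Dlx5 and the empty vector, and no gene of 13636 (0%). Dlx5 itself was not among the genes tested there. Before adjustment 3 members had a p under 0.05 (5.26%, against 12.9% of all genes), and the arrays did not overlap for 19 (33.3%, against 48.8%). Unc5b read 11.74 and 11.76 with Dlx5 but 12.22 and 12.40 without it, differing by -0.56 ± 0.16 (adjusted p = 0.377). Its second probe set differed by -0.24. Sema6a, a membrane semaphorin, read 5.67 and 5.65 against 6.50 and 5.98, a difference of -0.58 ± 0.20 (adjusted p = 0.380), with other sets at -0.40 and 0.11. Sema4b (0.38) was the third.

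The members that led in the vesicles did not pass in these cells. Slit2 read 7.13 on both Dlx5 arrays and 6.80 and 6.97 on the others, differing by 0.25 ± 0.16. Nrp2, bright in the line, read 11.49 and 11.51 against 11.68 and 11.89 (-0.29 ± 0.16), and its second bright set differed by 0.06. Plxna2 differed by -0.16, Plxnd1 by -0.14 and Efna1 by 0.29, and none of these passed. The line had Epha4, Unc5c and Dcc at 2.56 to 3.73 on the probe sets that were bright in vesicles, near the bottom of the array's range, and these genes were tested there through other probe sets. Robo1 was below the filter. Over all tested members 24 were higher and 33 lower with Dlx5, with a median of -0.05 against 0.05 for all genes. After quantile normalization 14 were higher and 42 lower, and the median was -0.13 against -0.03 for all genes. The spread of values was narrowest on empty vector replicate 1 (SD 2.19, against 2.29 to 2.31 on the other 2B1 arrays). Of 57 further guidance genes none passed, and the smallest unadjusted p values belonged to Gap43 (0.96), Dpysl3 (-0.71), Chn2 (0.64), Dpysl2 (-0.45), Mical2 (-0.45) and Cdc42 (0.44).

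Of the 68 members, 10 were among the lowest 25% of genes in the vesicles, at a mean under 5.19, and were not tested there: Epha3, Epha5, Epha6, Ntn1, Ntn3, Robo2, Robo3, Robo4, Sema4b and Unc5d. In 2B1 cells, with a limit of 4.85, the 11 not tested were Epha3, Epha5, Epha6, Ntn3, Plxnc1, Robo1, Robo2, Sema3e, Sema5a, Sema6d and Unc5d. Without that filter 17 members passed for stage, none of them from these lists, and none passed for genotype or in 2B1 cells.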

How the data were processed

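Biotin-labelled RNA was hybridised to Affymetrix arrays. The deposited table holds log2 values of 45101 probe sets, and per the submitters' processing notes Affymetrix Expression Console and RMA were used; no version is given there. RMA makes differences of dim probe sets smaller. Vesicle arrays (mean 6.10 to 6.11, maximum 14.9) and 2B1 arrays (5.76 to 5.82, 15.4) appear to have been normalized apart. The number of arrays limits the precision; detection calls were not used here.

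Of the probe sets 34958 had 1 gene, 932 several and 9211 none; only the first kind was used. Symbols were updated through a RefSeq table of GRCm38.p6 (34754 by gene identifier, 1 by accession, 203 kept as listed). The probe set with the highest mean stood for a gene, and the lowest 25% of genes were left out. Differences were tested with lmFit and eBayes of limma 3.58.1 in R 4.3.3, with Benjamini-Hochberg adjustment over all genes and a threshold of 0.05. Stage and genotype over both stages were fitted additively (8 arrays), single stages and the interaction from group means, and 2B1 cells apart (4 arrays). The fits were tested on simulated data. Comparisons in vesicles share arrays.

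Genes named were all past the threshold (up to 12 per direction), or up to 5 per direction by unadjusted p without overlap and with a log2 difference of at least 0.5, and the 2 largest per family; for further guidance genes, those past the threshold or 3 per direction, of which 1 is not reported here. Sema4g, the 13th rise, and the genes named for non-overlap, for an unadjusted p or because an alternative changed their call were added after their values were seen. Members and lists were chosen with earlier results of these data known. RefSeq start-site windows of 8 members not on chromosome 18 were not found, and those of 2 members on it were not used.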

Additional observations from a re-analysis of the deposited data

How the results depend on the processing

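Alternatives were no filter or a filter on the lowest 50% of genes, probe sets singly or averaged, centring on the median, trend and robust eBayes, leaving out arrays, an Eif2s3y covariate and a replicate block. Quantile normalization, leaving out the 3 arrays of narrowest spread and a crossed pairing in 2B1 cells were added after seeing the data. In every comparison but stage the main count of members passed was 0, so an alternative count there was the same only if it was also 0. Of 110 alternative counts 100 were the same or stayed within 1.5 times the main count, most of them 0 against 0. For stage (19) the others were 8, 10, 10 and 11 in 4 of the 8 fits without 1 array (range 8 to 23), 3 with Eif2s3y as a covariate, and 0 in wild-type and 0 in labelled-null arrays alone; 22 passed after quantile normalization. All genes passed for stage numbered 2158, against 470 to 3800 without 1 array, 1230 with the block, 3379 after quantile normalization and 233 with Eif2s3y. For genotype (0) without both E10 replicate 1 arrays 1 member passed over both stages and 2 at E10.5. Fewer arrays or tests of 1 genotype leave fewer degrees of freedom; otherwise the cause was not tested.

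Same-numbered arrays of the genotypes deviated together at E10 (r = 0.71) but hardly at E10.5 (r = 0.07), so the numbers were not taken to pair samples. With the replicate block 16 members passed for stage and 1, Nrp2, for genotype at E10.5 (adjusted p = 0.0248, in a range of 0.0136 to 1 over 19 alternatives). For genotype at E10 no member and no gene passed with the block. There 1641 genes had an unadjusted limma p under 0.05, against 451 without the block. In 2B1 cells, where r was -0.13, 0 members passed with the block (258 genes) and 0 with crossed pairing (20 genes).

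Of 1142 alternative values of single genes 1023 kept direction and side of the threshold and 105 lost it. Those 105 were all stage differences, the single comparison with members past the threshold. In the other comparisons a value kept its side simply by not passing again, so the share of 1023 does not measure how steady the passed values were. A further 3 values came to pass, and 11 changed sign, all of genotype differences over both stages that had not passed. Sema6a came to -0.00583 with averaged probe sets, and leaving out 1 array gave -0.10 to 0.27 for Ephb6, -0.053 to 0.16 for Efnb3 and -0.036 to 0.49 for Ntn4. Slit1 came to -0.02 without both E10 replicate 1 arrays and -0.00857 without the 3 arrays of narrowest spread, where Sema3d came to -0.00286. With Eif2s3y Epha10 came to -0.00050 and Ephb4 to 0.18. The cause was not tested.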
